A study of Drosophila melanogaster with 8 samples.

Results

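Female and male eyes of the fruit fly Drosophila melanogaster were compared, each as 1 of the 8 libraries of a series that also holds heads and salivary glands of both sexes, ovaries and testes. All flies were wild type Oregon R, kept at 25 °C and aged 5 to 7 days from hatching, and no group carried a treatment or a transgene. The eyes were taken with tweezers from frozen heads, and the number of flies behind a library is not stated in the labels. The libraries are long-read cDNA of total RNA in which transcripts of quick-to-court (qtc) had been amplified with gene-specific primers from their 5′ and 3′ ends, so levels and folds of every other gene describe amplified libraries. The series title asks about splicing of qtc by sex. The libraries were used here for a different comparison, that of eye functions in female and in male eyes. Of 14292 genes in the table, 335 had 50 or more estimated counts in at least 1 of the 2 eye libraries and were ranked by the ratio of their counts per 1000000 matched counts (CPM), female over male. Just inside that limit stood CG9674 at 50 counts, sea at 50.1 and Nlp at 50.2, and just outside it Cln3 at 49.8, Tsp29Fb at 49.7 and ND-23 at 49.5.

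The fly eye turns light into an electrical signal in photoreceptor cells. A rhodopsin activates a heterotrimeric G protein, which activates phospholipase C, and the light-gated channels TRP and TRPL then let calcium and other cations into the cell. Arrestins bind the activated rhodopsin and end the response, calmodulin carries the calcium signal to several steps of the cascade, and support and pigment cells recycle the chromophore, build the corneal lens and screen stray light.

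Each sex has 1 eye library, so no test of sex was possible and no p-value is given. A ratio stands with its exact conditional binomial interval at 95%, which covers counting error only. Reads after PCR, with no molecular identifiers, do not stand for separate molecules, and the spread between flies was not measured. Female eyes held 143331 matched counts, with 5138 genes above 0, and male eyes 125584, with 4526. A gene at 0 may hold up to 3 counts, or 20.9 CPM in female eyes and 23.9 CPM in male eyes. Genes named as rRNA took 23.9% of the counts of female eyes and 22.0% of male eyes, and qtc 0.631% and 2.64%. The 2 eye libraries differed widely: 130 of the 335 genes (38.8%) were 2-fold or more higher in female eyes and 84 (25.1%) 2-fold or more lower. By TPM, which is corrected for transcript length, these counts were 104 and 107. Between female and male heads, 32 (10.7%) of 299 genes with 50 counts in either were 2-fold or more higher and 35 (11.7%) lower. The median log2 ratio of the 335 genes was 0.45, against which the values below can be read.

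Both libraries carried the markers of eyes. Rh3, Arr2, ninaE, trp and retinin were above 60 counts in each eye library, and retinin, a protein of the corneal lens, was at 3746.7 CPM in female eyes and 11503.3 CPM in male eyes, above the 1224.0 and 1911.7 CPM of female and male heads. Rh2, the opsin of the ocelli, the simple eyes on top of the head, was at 124.4 CPM in female eyes and 589.1 CPM in male eyes, below the 2307.1 and 1956.8 CPM of female and male heads. Crys, a lens crystallin gene, had 1.0 count in female and 2.0 in male eyes, and the pigment transporter gene w had 0 and 1.0. The neuronal gene nSyb had 1.0 count in each eye library and the glial gene repo 0 in both.

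Female eyes also held genes of other tissues. The eggshell list held 8.45% of all counts in female eyes and 0.0575% in male eyes (16.4% in ovaries), led by the chorion gene Cp15 at 82379.0 CPM against 202.3 CPM. The yolk protein list took 0.45% and 0.0041%. The gut list took 2.77% and 1.05%, and 1.95% and 0.0534% without Npc2h, the member with the most counts in male eyes. In male eyes the fat body list took 1.37% of counts, against 0.319% in female eyes. Of the 1721.4 counts in male eyes, 1378.2 were of Lsp2, a larval serum protein gene that is at 122762 CPM in female and 129339 CPM in male salivary glands of the series. The part of these genes in the other ratios was not tested beyond the recalculations given below. In bulk libraries, fewer cells of a type and less RNA per cell cannot be told apart.

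**Figure D1:**
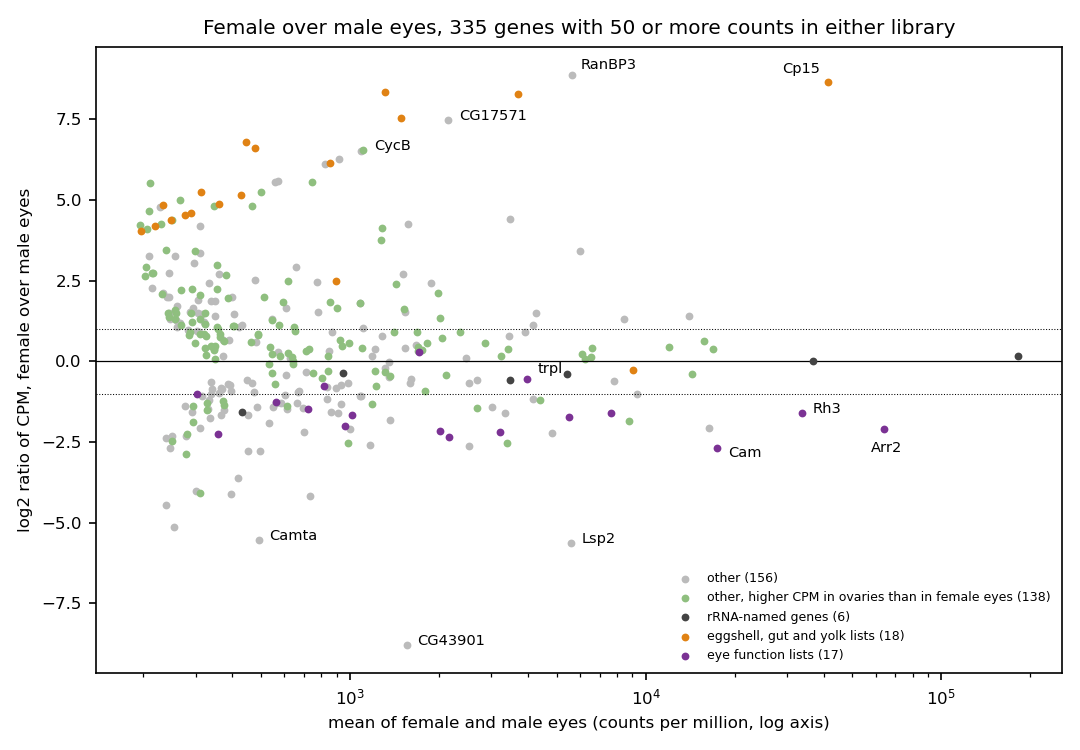
Log2 ratio of CPM, female over male eyes (vertical axis), against the mean CPM of the 2 eye libraries (horizontal log axis), 1 point per gene of 335, with dotted lines at 2-fold. The 17 ranked genes of the eye function lists lie at or under 0.29, while 17 of the 18 ranked genes of the eggshell, gut and yolk lists lie above the upper dotted line.

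Genes of phototransduction had lower CPM in female eyes than in male eyes, from rhodopsins to arrestins. The 4 phototransduction lists (rhodopsins, enzymes and signalling, channels, arrestins and rhodopsin kinase) hold 32 genes, which together took 5.55% of the counts of female eyes and 21.4% of male eyes, a ratio of 0.259 (0.252 to 0.265). In heads the same genes took 10.3% in females and 11.2% in males. Of the 10 members with 50 or more counts in either eye library, 9 were 2-fold or more lower in female eyes, against 25.1% of all ranked genes, 0 were higher and trpl was within 2-fold. Their median log2 ratio was -2.12. Of the 21 members with 10 or more counts over both eye libraries, 21 had a lower CPM in female eyes, against 47.9% of the 1560 genes of the table at that depth. With rRNA-named genes, the eggshell, gut and yolk lists and qtc left out of the totals the ratio was 0.301, and with every gene of higher CPM in ovaries than in female eyes left out it was 0.314.

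Among rhodopsins, Rh3, an ultraviolet-sensing opsin of the inner photoreceptors, had 2418.2 counts (16871.4 CPM) in female eyes and 6390.9 counts (50889.4 CPM) in male eyes, 3.02-fold lower in females (2.88 to 3.16). Rh3 lies on chromosome 3R from 20081060 to 20082450, minus strand, in BDGP6. Rh4, the other ultraviolet-sensing opsin of those cells, was at 2543.0 CPM in female eyes and 8506.1 CPM in male eyes, 3.34-fold lower (2.97 to 3.78). ninaE, the opsin of the outer photoreceptors, was at 1166.2 CPM in female eyes and 5284.0 CPM in male eyes, 4.53-fold lower (3.82 to 5.40). Rh2 was 4.74-fold lower (2.80 to 8.45), on 17.8 counts in female eyes and 74.0 in male eyes. Rh5, a blue-sensing opsin, had 10.0 counts in female eyes and 20.8 in male eyes. Rh7 had 3.0 counts in each, at the limit that allows no fold. In heads, ninaE was at 2372.7 CPM in females and 2424.8 CPM in males, Rh3 at 19473.0 and 27239.6 CPM, and Rh4 at 10438.5 and 7409.3 CPM. Male eyes were the highest of these 4 libraries for ninaE and Rh3, and female eyes the lowest for all 3 genes.

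The make-up of the rhodopsin counts differed less between the sexes than their sum. Of the counts of ninaE, Rh2, Rh3, Rh4 and Rh5 together, Rh3 took 81.2% in female eyes (Wilson interval 79.8% to 82.6%) and 77.8% in male eyes (76.9% to 78.7%). Rh6, another photoreceptor opsin, is not among the 6 list members found in the table, so these shares leave it out. ninaE took 5.61% in female eyes (4.84% to 6.50%) and 8.08% in male eyes (7.51% to 8.68%). By TPM, which is corrected for transcript length, Rh3 took 81.5% in female and 78.3% in male eyes, and ninaE 4.80% and 6.94%. Neither scale was tested as a measure of the RNA of one gene against another in these amplified libraries. Of Rh3 and Rh4 alone, Rh3 took 86.9% in female eyes (85.6% to 88.1%) and 85.7% in male eyes (84.9% to 86.5%), intervals that overlap. In heads the same share was 65.1% in females (63.6% to 66.6%) and 78.6% in males (77.4% to 79.8%), so it differed more between the head libraries than between the eye libraries.

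**Figure D2:**
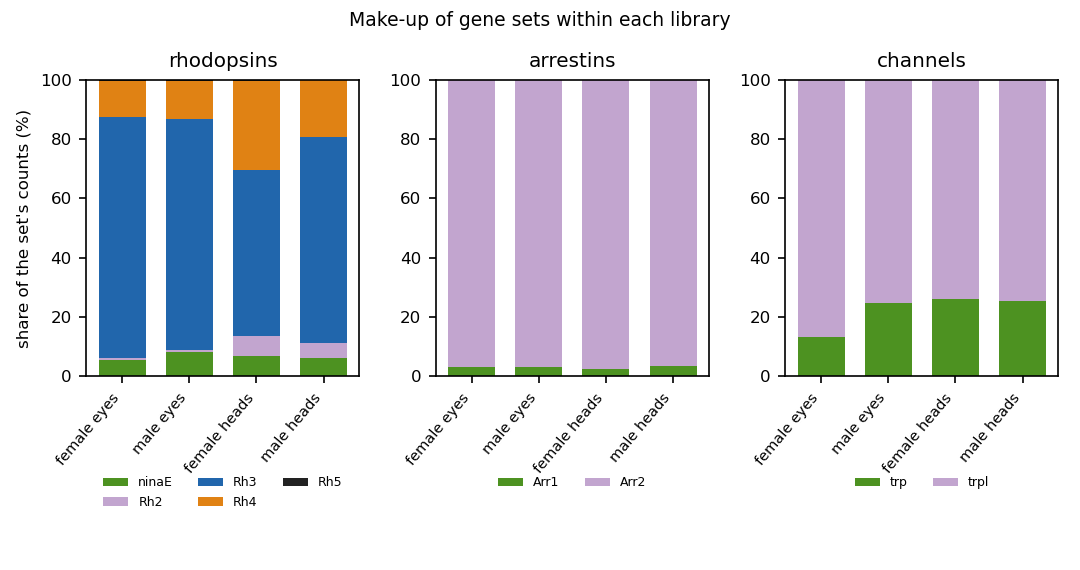
Share of a gene set's counts (vertical axis, %) taken by each member in female eyes, male eyes, female heads and male heads, 1 library each, for 5 rhodopsins, 2 arrestins and 2 channels. Rh3 took most rhodopsin counts in all 4 libraries, Arr2 96.6% to 97.6% of arrestin counts, and trp a smaller share of channel counts in female eyes (13.1%) than in the other 3 libraries (24.6% to 26.1%).

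The G protein, enzyme and signalling list held 0.586% of all counts in female eyes and 3.57% in male eyes. Cam, which encodes calmodulin, had 666.9 counts (4653.2 CPM) in female eyes and 3808.6 counts (30327.0 CPM) in male eyes, 6.52-fold lower in females (6.0 to 7.09). Calmodulin is made in many tissues: Cam was at 10190.0 CPM in female heads, 13957.7 CPM in male heads and 3767.9 CPM in ovaries. Without Cam, the ratio of the 4 lists was 0.276. Ggamma30A, the gamma subunit of the visual G protein, was at 710.8 CPM in female eyes and 3597.1 CPM in male eyes, 5.06-fold lower (4.07 to 6.34). It was at 6577.0 CPM in female and 6024.6 CPM in male heads, above both eye libraries. The other members were thinly counted, at no more than 15 counts in female and 42.3 in male eyes, and are named here although their values were seen first. norpA, the phospholipase C of the cascade, had 9.0 counts in female eyes and 42.3 in male eyes. Gbeta76C, the beta subunit of the visual G protein, had 11 and 41.0 counts. Galphaq, its alpha subunit, had 6.0 and 20.8 counts, inaC, the eye protein kinase C, 4.0 and 24.9, and inaD, the scaffold that holds the cascade together, 6.1 and 19.8. In CPM each of these 5 was lower in female eyes.

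Of the ranked phototransduction genes, the channel gene trpl stood closest between the sexes. trpl had 460.0 counts (3209.6 CPM) in female eyes and 593.7 counts (4727.2 CPM) in male eyes, 1.47-fold lower in females (1.30 to 1.67). trp had 69.2 counts (482.9 CPM) in female eyes and 194.1 counts (1545.8 CPM) in male eyes, 3.20-fold lower (2.42 to 4.28). The interval of trpl does not reach that of trp, nor that of any other ranked phototransduction gene. Accordingly trp took 13.1% of the counts of trp and trpl in female eyes (10.5% to 16.2%) and 24.6% in male eyes (21.8% to 27.8%), against 26.1% in female and 25.4% in male heads. trp lies on 3R from 29914521 to 29920289, minus strand, and trpl on 2R from 9753697 to 9765518, plus strand.

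The arrestins took 2.51% of the counts of female eyes and 10.7% of male eyes, with the rhodopsin kinase genes in the same list at 5.1 counts or fewer. Arr2, the more abundant photoreceptor arrestin, had 3483.5 counts (24304.1 CPM) in female eyes and 12992.9 counts (103459.5 CPM) in male eyes, 4.26-fold lower in females (4.10 to 4.42). Arr1 was at 738.2 CPM in female eyes and 3287.0 CPM in male eyes, 4.45-fold lower (3.59 to 5.57). In heads Arr2 was at 44854.4 CPM in females and 44409.1 CPM in males, so both sexes were near one level there, between the 2 eye libraries. Arr2 took 97.1% of the counts of Arr1 and Arr2 in female eyes (96.4% to 97.6%) and 96.9% in male eyes (96.6% to 97.2%), intervals that overlap. Arr2 lies on 3L from 8647261 to 8648936, minus strand.

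**Figure D3:**
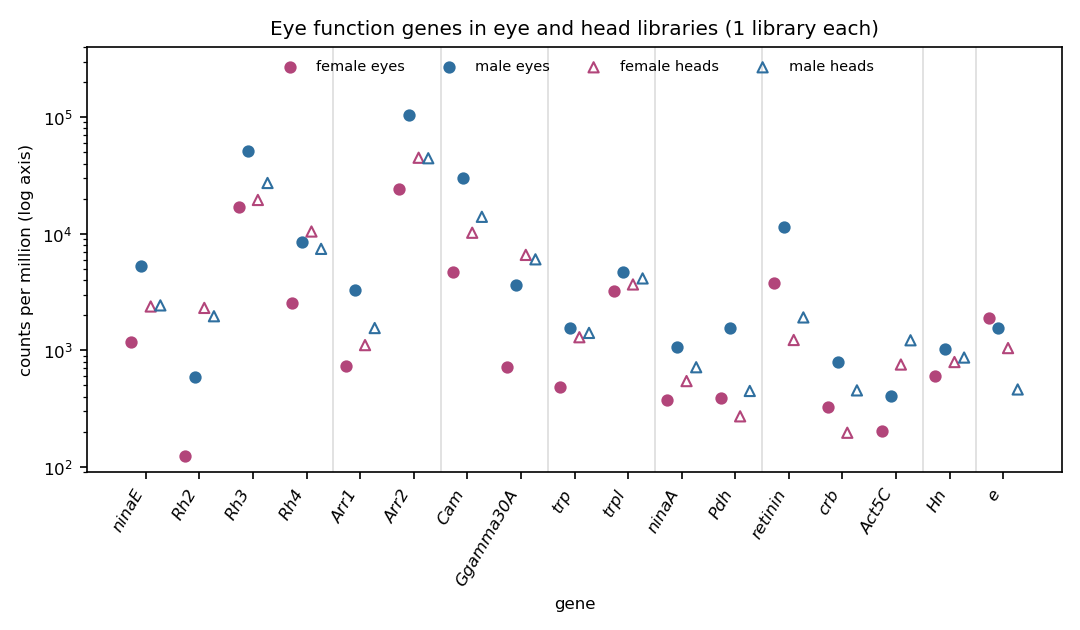
CPM (vertical log axis) of the 17 ranked genes of the eye function lists in female eyes, male eyes (filled circles), female heads and male heads (open triangles), 1 library each, grouped by role. Female eyes lie under male eyes for 16 of the 17 genes, the exception being e, which turns by TPM (log2 ratio -0.11), and lie lowest of the 4 libraries for all ranked phototransduction genes, Hn, ninaA and Act5C.

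Genes that serve the photoreceptor or build the lens, outside the cascade, were lower in female eyes too. In rhodopsin maturation and chromophore recycling, ninaA, a cyclophilin that accompanies rhodopsin through the secretory pathway, was at 377.6 CPM in female eyes and 1059.7 CPM in male eyes, 2.81-fold lower in females (2.03 to 3.92). Pdh, a retinol dehydrogenase of pigment cells, was at 386.7 CPM in female eyes and 1540.5 CPM in male eyes, 3.98-fold lower (2.94 to 5.47). The list of rhabdomere and photoreceptor structure, which includes lens genes, took 0.480% of the counts of female eyes and 1.45% of male eyes. Most of these counts were of the lens gene retinin. The list also took 0.719% of counts in female and 1.05% in male salivary glands. Of its 12 members with 10 or more counts over both eye libraries, 12 had a lower CPM in female eyes, against 47.9% of the 1560 genes at that depth. retinin was 3.07-fold lower (2.78 to 3.40). crb, which sets the apical membrane of photoreceptors, was at 328.0 CPM in female eyes and 793.9 CPM in male eyes, 2.42-fold lower (1.69 to 3.50), and at 195.8 and 452.2 CPM in female and male heads. Act5C, a cytoplasmic actin, was at 201.8 CPM in female eyes and 404.0 CPM in male eyes, 2.00-fold lower (1.24 to 3.28).

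The ranked pigment and histamine genes, Hn and e, differed less. Hn, the phenylalanine hydroxylase, was at 601.3 CPM in female eyes and 1031.0 CPM in male eyes, 1.71-fold lower in females (1.30 to 2.28). The pigment list as a whole took 0.0925% and 0.141% of counts, with 6 of its 25 members at 0 in both. Photoreceptors signal with histamine, which glia join to beta-alanine by the product of the gene e (ebony). e was at 1887.2 CPM in female eyes and 1539.9 CPM in male eyes, 1.23-fold higher in females (1.02 to 1.48) by CPM but lower by TPM (log2 ratio -0.11), and at 1043.1 CPM in female and 460.6 CPM in male heads. The histamine list took 0.217% and 0.218% of counts, an order that turns with the scaling: its summed log2 ratio was 0.00 by CPM, 0.22 without rRNA-named, eggshell, gut, yolk and qtc counts and -0.48 by TPM. Most of these counts were of e, the list's 1 ranked member. Of the list's 3 members with 10 or more counts over both eye libraries, 2 had a lower CPM in female eyes. Eye transcription factors were under 50 counts each and took 0.0098% of female and 0.0425% of male eyes. Clock genes, also under 50 each, took 0.0286% and 0.07%. Over all 10 eye lists, 45 of the 48 members with 10 or more counts over both eye libraries had a lower CPM in female eyes. Without the phototransduction lists this was 24 of 27, against 47.9% of the 1560 genes at that depth. Of the 146 members of the 10 lists, 25 were at 0 in both.

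Neuronal and mitochondrially encoded genes were lower in female eyes as well. The neuron and synapse list held 0.109% of all counts in female eyes and 0.279% in male eyes. Of its 7 members with 10 or more counts over both, 6 had a lower CPM in female eyes, against 47.9% of the 1560 genes at that depth. Its 1 ranked member, ple, the tyrosine hydroxylase of dopamine synthesis, is also in the catecholamine and cuticle tanning list. ple was at 251.4 CPM in female eyes and 1144.6 CPM in male eyes, 4.55-fold lower in females (3.14 to 6.76). Of the 5 ranked genes encoded in the mitochondrion, 4 were 2-fold or more lower, against 25.1% of all ranked genes. mt:CoI, a subunit of cytochrome c oxidase, was at 326.5 CPM in female eyes and 799.1 CPM in male eyes, mt:CoII at 295.7 and 798.0 CPM, and mt:CoIII at 118.7 and 502.6 CPM, while mt:ATPase6 was at 515.9 and 695.8 CPM. In heads these 4 genes ran the other way, with log2 ratios of 0.14 to 0.73. Nuclear genes of oxidative phosphorylation gave no single direction. Of 11 ranked, 1 was 2-fold or more higher, against 38.8% of all ranked genes, and 2 were lower, against 25.1%. The remaining 8 lay within 2-fold, among them ND-SGDH at 6529.7 CPM in female eyes and 5622.6 CPM in male eyes. Of the list's 43 members with 10 or more counts over both, 27 had a lower CPM in female eyes, against 47.9% at that depth. The list's summed CPM was higher in female eyes, at a ratio of 1.15 (1.09 to 1.22), but its log2 ratio by TPM was -0.14.

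Ribosomal protein genes held a larger share of counts in female eyes. The ribosomal protein list held 11.7% of all counts in female eyes and 6.90% in male eyes, against 15.6% in ovaries, 11.9% in female heads and 9.51% in male heads. Of its 35 ranked members, 18 were 2-fold or more higher in female eyes, against 38.8% of all ranked genes, 1 was lower and 16 lay within 2-fold, with a median log2 ratio of 1.08. RpL7 was at 20401.6 CPM in female eyes and 7695.5 CPM in male eyes, RpS3 at 19130.0 and 12302.4 CPM, RpL36A at 19078.0 and 14660.7 CPM and RpS20 at 13762.8 and 10219.2 CPM. Of these 4, RpL7 was past 2-fold, at 2.65-fold (2.46 to 2.85). Of 10 ranked translation factors 5 were 2-fold or more higher, near the 38.8% of all ranked genes, among them eIF3b at 772.6 CPM in female eyes and 318.1 CPM in male eyes, and 5 lay within 2-fold, among them eIF3l at 6784.2 and 6234.8 CPM. RpL36A and eIF3l turn sign by TPM, with log2 ratios of -0.03 and -0.28. The ribosomal list kept its direction under each scaling tried, with a summed log2 ratio of 0.77 by CPM and 0.26 by TPM, while that of translation factors turned, with 0.24 by CPM and -0.06 by TPM.

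**Figure D4:**
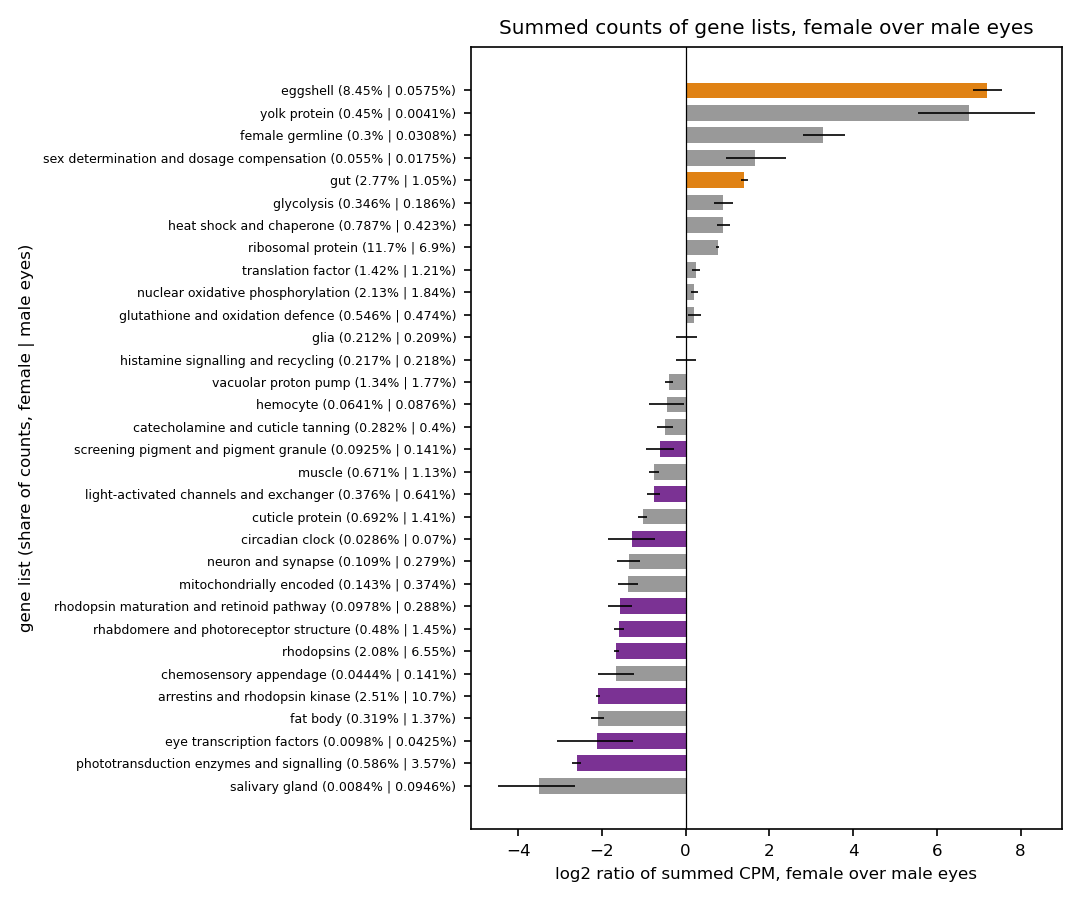
Log2 ratio of summed CPM of gene lists, female over male eyes (horizontal axis), with intervals for counting error as lines; each label gives the share of counts in female and then male eyes, and purple bars are eye lists, orange bars eggshell and gut. Eggshell and yolk protein lists stand at the top, above 6, and 9 of the 10 eye lists stand under -0.6, with histamine signalling at 0.00.

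Apart from the eggshell, gut and yolk lists and rRNA-named genes, 311 genes remained, of which 113 (36.3%) were 2-fold or more higher in female eyes and 83 (26.7%) lower. The 15 highest of them began with RanBP3, which encodes a Ran-binding protein of nuclear transport, at 1614.7 counts in female eyes and 3.0 in male eyes, a ratio of 465 (160 to 2221). RanBP3 was also at 14643.9 CPM in testes and 1437.7 CPM in female heads, and its counts are uncertain. Serine protease genes that the gut list did not hold were among the 15: CG17571 had 616.2 counts in female eyes and 0 in male eyes, at least 180-fold higher, and CG10472 had 235.8 and 0, at least 68.9-fold higher. Both were at 0 in ovaries and under 35 CPM in female heads. CycB, the mitotic cyclin B, had 317.7 counts in female eyes and 0 in male eyes, at least 92.8-fold higher, and was at 4964.6 CPM in ovaries.

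The remaining 11 of the 15 fall apart by their level in ovaries. Mcm5, a subunit of the replicative helicase, had 58.9 counts in female eyes and 1.1 in male eyes (ratio 46.2, 8.59 to 1339), and Kmn1, a kinetochore protein, 139.9 and 3.2 counts (ratio 37.8, 13.1 to 171). Like CG32409, CG14230, CG13096 and Phb1, a mitochondrial prohibitin, they were higher in ovaries than in female eyes, at 1008.2 to 4845.3 CPM. CG12057, Cph, a zinc finger transcription factor, and Ag5r2, a secreted antigen 5-related protein, had 311.0, 163.4 and 159.6 counts in female eyes and 0 in male eyes, and were at 0 in ovaries. CG3868 had 263.6 counts in female eyes and 0 in male eyes, and Aps, an inositol pyrophosphate phosphatase, 63.0 and 2.0 counts. Ag5r2 was also at 1832.0 CPM in female and 3338.5 CPM in male salivary glands, above its 1113.3 CPM in female eyes. CG3868 was at 90.2 CPM in female and 853.8 CPM in male salivary glands, and CG12057 and Cph were at 0 in both. Of all 113 genes that were higher, 55 (48.7%) had a higher CPM in ovaries than in female eyes, near the 44.7% of all 311. The same held for 18 of the 83 lower genes (21.7%) and 66 of the 115 genes within 2-fold (57.4%). The CPM of female eyes in this comparison also set these groups. Of the same 113, 8 (7.08%) were at 0 in ovaries, and of the 83 lower genes 26 (31.3%), against 41 (13.2%) of all 311.

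The 15 lowest genes began with CG43901, at 1.0 count in female eyes and 389.0 in male eyes (3097.6 CPM), a 444-fold difference on 1 count (79.2 to 17581). It was at 337.2 CPM in female and 458.7 CPM in male heads and lies on the X chromosome from 10905767 to 10923436. Lsp2 had 31.5 counts in female eyes and 1378.2 in male eyes, 50-fold lower (35.2 to 73.7). Camta, a calmodulin-binding transcription factor known in fly photoreceptors for its part in ending the light response, had 0 counts in female eyes and 123.6 in male eyes, at least 47.0-fold lower, and was at 91.6 CPM in female and 29.6 CPM in male heads. CG32432 had 2.0 and 61.8 counts, and px, a nuclear protein of wing vein patterning, 3.0 and 57.3 counts.

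Metabolic and processing genes followed. Cyp313a1, a cytochrome P450, was at 76.7 CPM in female eyes and 1382.0 CPM in male eyes, 18-fold lower in females (9.82 to 36.7), and at 389.5 and 1312.7 CPM in female and male heads. SF2, a splicing factor, was 17.1-fold lower (6.98 to 54.9), on 4.9 counts in female eyes and 74.0 in male eyes. Gfat1, the first enzyme of the hexosamine pathway, was 12.4-fold lower (6.25 to 27.8), and Alg12, a mannosyltransferase of N-glycan assembly, 7.40-fold lower (3.72 to 16.5). CG33110, CG14314, CG9427 and CG11368 were 6.90-fold to 17.3-fold lower. Cam and Obp99b, an odorant-binding protein gene at 9.5 counts in female and 53.7 in male eyes, closed the 15. Of the 64 lower genes with 50 counts in either head library, 10 were 2-fold or more lower in female heads and 1 was higher. Of the 40 higher genes so counted, 12 were higher in female heads and 4 lower. Of all 197 genes so counted among the 311, 19 were higher and 18 lower in female heads. Among the genes named, CG10472, CG32409, CG14230, Kmn1, Lsp2, CG32432, SF2, Alg12, Cam, ninaA, Pdh, Actn, RpL36A, RpS20, ND-SGDH, mt:ATPase6 and mt:CoIII share exonic positions with other annotated genes, so their counts are uncertain.

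The main transcript of a gene, the one with the most estimated counts, could be compared for 95 genes with 50 or more counts in each eye library and 2 or more annotated transcripts. It differed between female and male eyes for 17 of them (17.9%), and for 11 (11.6%) the Wilson intervals of both transcripts were apart. None of the 17 is in the eggshell, gut or yolk lists, but of the 95 genes only Npc2h, of the gut list, is. Both transcripts have the same coding sequence in 12 of the 17, the same 5′ end in 9 and the same 3′ end in 11. In 9, the exons of one lie wholly within those of the other, and reads in shared exons do not tell such a pair apart. Reads had a mean length of 585 bases in female eyes and 648 in male eyes before the authors' filter, shorter than most of these transcripts, so the shares are estimates by the authors' assignment. The Wilson intervals take every estimated count as a read assigned without error, so they do not cover the error of that assignment.

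Eye genes among them were trp and Hn. All 69.2 counts of trp in female eyes were assigned to trp-RA (100%, 94.7% to 100%), against 45.6% (38.7% to 52.6%) of 194.1 counts in male eyes, where trp-RB took 54.4%. In heads trp-RA took 56.1% in females and 0% in males. The pair has the same ends, differs in coding sequence, and spans 4129 and 4149 exonic bases, those of RA within RB. Hn-RC took 100% of the 86.2 counts of Hn in female eyes (95.7% to 100%) and 42.3% (34.1% to 50.9%) of 129.5 in male eyes, where Hn-RA took 57.7%. Hn-RC starts at 7760551 and Hn-RA at 7760453 of 3L, plus strand, with the same coding sequence and end. In heads Hn-RC took 78.2% in females and 93.0% in males. Cpn, which encodes calphotin, a calcium-binding protein of photoreceptors outside the eye lists, was 3.54-fold lower in female eyes (2.76 to 4.56). Cpn-RB took 77.9% of its counts in female eyes (68.1% to 85.4%) and 47.2% in male eyes (41.3% to 53.2%).

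The largest differences in share were in other genes. l(3)L1231-RC took 76.9% in female eyes (64.0% to 86.1%) and 0% in male eyes (up to 2.94%), where RA took 100%; in heads RC took 49.5% in females and 71.3% in males. qtc, the amplified gene, had RH as its main transcript in female eyes, at 76.8%, and RI in male eyes, at 79.8%. For Actn, the alpha-actinin of the cytoskeleton and muscle, RB took 72.3% in female eyes and 0% in male eyes, where RI took 67.5%; RB was at 0 in both head libraries and at 13% in ovaries. For Tnpo, a transportin of nuclear import, RC took 84.1% in female eyes (81.6% to 86.4%) and 14.3% in male eyes (10.7% to 18.9%), against 73.2% in female and 71.3% in male heads. Thus the male eye library stood apart from the other 3 for Tnpo, and the female eye library for Actn. CG2145-RB took 100% in female and 43.6% in male eyes. CG5021, ATPsynD, RpS3 and RpS30 differed by 21.3, 14.8, 14.8 and 12.6 percentage points, and of all 17 genes 9 differed by 20 points or more.

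**Figure D5:**
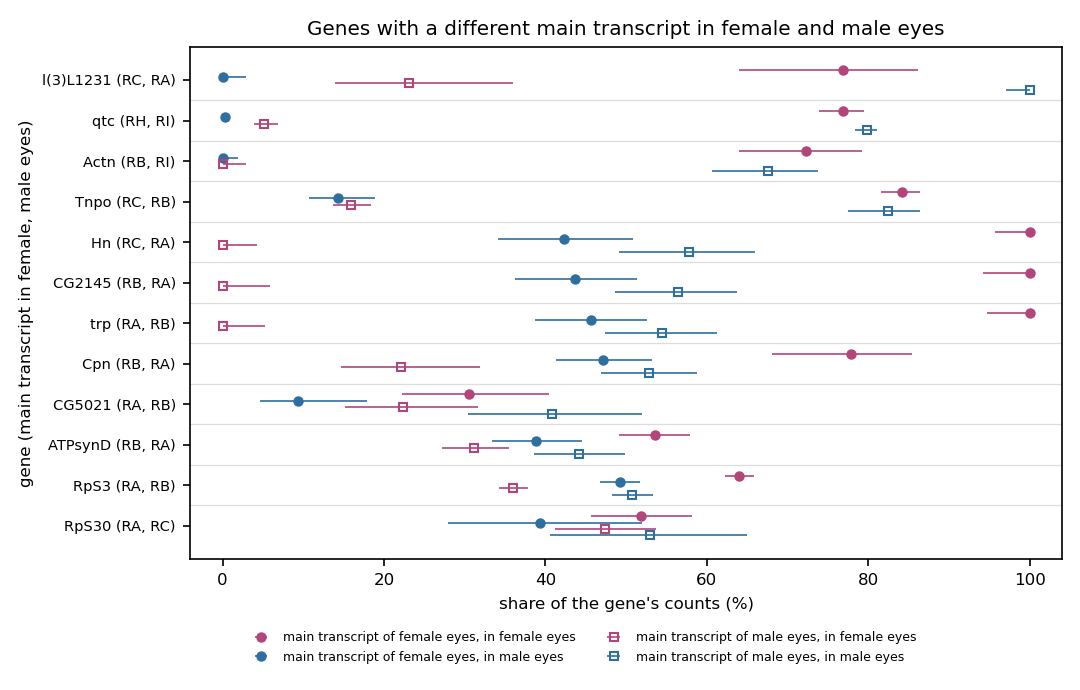
Share of a gene's counts (horizontal axis, %) taken by the main transcript of female eyes (filled circles) and of male eyes (open squares), in female eyes (pink) and male eyes (blue), with Wilson intervals, for the 12 genes with the largest difference in share. From l(3)L1231 to Tnpo a different transcript leads in each sex, at over 60% of counts in both, while for Hn, CG2145 and trp the male library is split and the female library holds 1 transcript.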

How the data were processed

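Eyes of 1 sex per library were compared, grouped by the tissue and sex in the labels. The authors deposited estimated counts for 31089 transcripts and, for the same transcripts, TPM corrected for length; reads per library are in another deposited table, as whole-number counts. Per the submitters' processing notes, the tools were minimap2, Salmon and edgeR and the build BDGP6; their versions and roles, and the read filter, are not stated there. IDs of transcripts were looked up in Ensembl release 115 for BDGP6 (31048 matched, 41 did not) and estimated counts, not rounded, were summed per gene. Genes with overlapping exons, on either strand, and near-identical copies have uncertain counts. The unmatched IDs held 0.247% of female and 0.302% of male eye counts and were left out. CPM was computed over matched genes, rRNA-named ones included, and ratios carry exact conditional binomial intervals, shares Wilson intervals, at 95%. A 0 was set to 3 counts per library, so its fold is a bound. Ratios and intervals were checked on simulated counts. TMM factors came from edgeR 4.0.16 in R 4.3.3, other values from Python 3.11.15 with pandas 2.3.3 and SciPy 1.17.1.

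The members and gene lists were chosen with earlier results of these data known. Genes were named by rule: the 15 highest and 15 lowest apart from the eggshell, gut and yolk lists and rRNA-named genes; ranked members of the eye lists; the 12 largest main-transcript differences; and the 4 most counted members of each other list, where these are described. Alternatives changed the total, the unit, the minimum of 50 counts, the floor and the lead of a main transcript.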

Additional observations from a re-analysis of the deposited data

Results flagged for a closer look

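For 5 genes the female over male ratio was 2-fold or more in one direction in eyes and 2-fold or more in the other in heads. These differences between eyes and heads were not tested, with 1 library each. CG45263 had a log2 ratio of 4.42 in eyes (952.2 counts in females, 39.1 in males) and -3.10 in heads. CG14770 had 2.52 in eyes and -1.45 in heads. Tnpo, whose main transcript also differed between female and male eyes, had 1.51 in eyes and -1.24 in heads. poe had 1.30 in eyes (12033.0 CPM in female eyes, 4878.0 CPM in male eyes, 10536.7 CPM in ovaries) and -2.01 in heads, and its counts are uncertain. CG6329 had -1.75 in eyes and 1.14 in heads.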

How the results depend on the processing

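With 1 library a group nothing replicates a value, and depth limits genes of few counts. The 130 higher and 84 lower genes became 289 and 199 with a minimum of 20 counts, 53 and 48 with 100, and 1649 and 1907 with no minimum. With genes of higher CPM in ovaries than in female eyes, a set chosen after seeing the data, left out of both the totals and the ranking, 77 were higher and 56 lower; left out of the totals alone, 151 and 71. Without rRNA-named, eggshell, gut, yolk and qtc counts in the totals, 150 were higher and 73 lower. The phototransduction ratio of 0.259 was 0.301 without rRNA-named genes, eggshell, gut and yolk lists and qtc, 0.314 without the ovary-higher genes, 0.194 by TPM, 0.238 without Arr2 and Rh3 and 0.276 without Cam, the last added after seeing the data. Main transcripts differed for 52 of 218 genes at 20 counts, 7 of 51 at 100, 4 with a lead of 60% in both libraries, 11 with intervals apart (added after seeing the data) and 18 by TPM, of which 15 were shared with the 17. The cause of these moves was not tested beyond the number of genes that enter. The median log2 ratio of ranked genes, 0.45 by CPM, was 0.67 with those totals, 0.72 with totals without ovary-higher genes and 0.08 by TPM. Calls that were higher made up 60.7% by CPM and 49.3% by TPM. Over 103 named genes and 412 recalculated values, none past 2-fold changed sign, and 55 left their counting interval. Within 2-fold, CG5021, ND-SGDH, Prx3, RpL36A, e and eIF3l turned sign by TPM, and ATPsynC and Sod2 with other totals. No paired analysis was possible because each sex has 1 eye library and the labels give no replicate numbers.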

Other observations

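Cuticle and chemosensory genes were mostly lower in female eyes. The cuticle protein list held 0.692% of all counts in female eyes and 1.41% in male eyes. Most of these were of Cpr49Ae, its 1 ranked member, at 6205.4 CPM and 12532.7 CPM, and 102 of its 126 members were at 0 in both. Of its 8 members with 10 or more counts over both, 7 had a lower CPM in female eyes, against 47.9% of all genes at that depth. Of 7 chemosensory genes with 10 or more counts over both, 7 had a lower CPM in female eyes, against 47.9% of the 1560 genes at that depth. Among them were Obp99b, which was also at 14.9 CPM in female and 141.0 CPM in male heads, and Obp83a, at 11 and 45.1 counts in female and male eyes. Orco, the odorant receptor partner of antennae, was at 0 in both. The chemosensory list held 0.787% of counts in female and 0.652% in male salivary glands, more than in eyes or heads. ple, lower in female eyes, was at 103.9 CPM in female and 576.7 CPM in male heads. Muscle genes took 0.671% and 1.13%, against 5.01% in female and 3.11% in male heads, and did not move together: Act57B, a muscle actin, was at 1000.1 CPM in female eyes and 5801.7 CPM in male eyes, SERCA, the calcium pump, at 321.0 and 901.7 CPM, and Mlp60A, a muscle LIM protein, at 4372.3 and 2536.7 CPM. In the fat body list, FASN1, fatty acid synthase, was at 1959.2 and 1377.1 CPM, bmm, a triglyceride lipase, at 504.8 and 191.1 CPM, and apolpp, the lipoprotein of the blood, at 225.1 and 452.4 CPM, beside Lsp2. The salivary gland list, of glue and related genes, took 0.0084% of female and 0.0946% of male eyes, with ng2 at 0 and 31.4 counts.

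Of 9 heat shock and chaperone genes with 10 or more counts over both, 7 had a higher CPM in female eyes, against 812 of the 1560 genes at that depth. l(2)efl, a small heat shock protein, was at 5697.3 CPM in female eyes and 2637.1 CPM in male eyes, and Hsc70-4, a chaperone, at 533.5 and 145.2 CPM, while stv, a co-chaperone, was at 202.2 and 461.9 CPM. The 2 ranked glycolytic enzymes, Tpi and Pglym78, were 2.90-fold (2.31 to 3.67) and 2.25-fold (1.40 to 3.72) higher. Of the 10 glycolysis genes with 10 or more counts over both, 6 had a lower CPM in female eyes, near the 47.9% of all genes at that depth. GstT3, a glutathione transferase, was at 565.8 and 55.7 CPM, while Sod1, Sod2 and Prx3, the last of which turns sign by TPM, lay within 2-fold. Pglym78, l(2)efl, SERCA, Act57B and apolpp share exonic positions with other annotated genes. msl-3, of the dosage compensation complex, had 51.6 counts in female eyes and 6.0 in male eyes and shares exons with another gene. The female germline list took 0.300% and 0.0308%, with CycB at 317.7 of its 430.4 counts in female eyes and 0 of 38.7 in male eyes, and osk at 2.0 and 0 counts and vas at 0 in both. VhaAC39-1, of the proton pump, was at 12365.1 and 16282.7 CPM. The glia list took 0.212% and 0.209%, mostly counts of e, its 1 ranked member, which is also in the histamine list. Of the 4 glia members with 10 or more counts over both, 2 had a lower CPM in female eyes, near the 47.9% at that depth. Of the 311 genes apart from eggshell, gut, yolk and rRNA-named ones, 53 lie on the X chromosome. Their median log2 ratio was 0.74, against 0.41 over all 311. Among these 53, 22 were 2-fold or more higher in female eyes and 7 lower, against 36.3% and 26.7% of the 311.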
